A study of Ailuropoda melanoleuca with 25 samples.

Results

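HIC_ASM_15 is 1 scaffold of the giant panda (Ailuropoda melanoleuca) assembly used for the deposited expression tables. Its members are the 1247 gene models, of 22924 in all, whose identifiers begin with the scaffold name, such as evm.model.HIC_ASM_15.38, written as model 38 from here on. Their numbers ran from 2 to 1732. They were split at evm.model.HIC_ASM_15.746, with 542 models of lower number, called left of the split, and 705 models from that one on, called right of the split. The number is read here as the order along the scaffold, since the tables give no coordinates. The tables do not pair identifiers with gene names either, and 0 of the 22924 identifiers occurred in the RefSeq gene table at hand, so no model is given a gene name, a sequence or a function. The scaffold and the split were picked from the median shift in log2 CPM (counts scaled to the size of each library) across these same libraries. The shifts are therefore descriptions with no test, and they concern RNA levels: the number of DNA copies was not measured.

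In general, losing or gaining a stretch of a chromosome lowers or raises many of the transcripts encoded there together, and pluripotent stem cell lines in long culture can acquire such changes. Neighbouring genes can also move together through a shared chromatin state, with no change in DNA. Pluripotent lines from separate donors or separate cultures can differ in both respects.

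The study reprogrammed fibroblasts into giant panda induced pluripotent stem cells (GPiPSCs) with episomal vectors that do not integrate into the genome. RNA was sequenced in 25 libraries of 12 labelled groups. BACL LB GPiPSCs, BACL-CHIR99021, BACL control, XR GPiPSCs, XR PF, LB PF (PF, primary fibroblasts), A83-01 D16, control D16, stage I D8, stage I D24 and stage II D8 had 2 libraries each, and LB GPiPSCs had 3, with D giving days 8, 16 and 24. A83-01 is an inhibitor of TGF-beta receptor signalling and CHIR99021 an inhibitor of glycogen synthase kinase. What LB, XR and BACL stand for is not explained in the labels. The stage, D16, BACL control and BACL-CHIR99021 libraries carry neither LB nor XR. The BACL control and BACL-CHIR99021 libraries share a prefix in their description field that the labels do not explain. BACL LB GPiPSCs carries a different prefix and XR GPiPSCs another. In BACL control minus XR GPiPSCs, what BACL marks therefore cannot be told apart from what the prefix marks. BACL LB GPiPSCs minus BACL control also sets different prefixes against each other. No label gives a clone, a passage number or separate cultures for replicates, so the spread behind each p-value may be technical. The labelled cell types could not be checked against marker genes without gene names, and in these bulk libraries fewer cells of a type cannot be told apart from less RNA per cell.

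Library totals lay between 8627983 estimated counts (LB PF replicate 2) and 14890260 (XR PF replicate 2). Enough counts for a test were found for 925 members, which were 373 of 542 models left of the split (68.8%) and 552 of 705 models right of the split (78.3%), against 75.6% of models on the other 20 HIC_ASM scaffolds. Of the 322 members not tested, 84 had under 0.5 counts in every library. The median coding length was 1248 bases left of the split and 1168.5 bases right of the split, against 1176 bases on the other scaffolds. The median of mean TPM, a length-scaled level, was 8.63 left of the split and 14.3 right of the split, against 9.42 on the other scaffolds. LB GPiPSCs replicate 3 stood apart from its group: over all models tested its log2 CPM correlated at r = 0.981 with each XR GPiPSCs library and at r = 0.962 with LB GPiPSCs replicates 1 and 2, which correlated with each other at r = 0.975. Levels in LB GPiPSCs are therefore given by library, and the medians, counts of called models and tests that include LB GPiPSCs are followed by the value without replicate 3.

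Models left of the split lay low in BACL-CHIR99021 and BACL control and between -0.08 and 0.25 in the libraries of all other groups. The shift of a library is the median over these models of log2 CPM minus the model's mean over the 12 groups, less the same median over the 16143 tested models of the other HIC_ASM scaffolds. It was -0.38 and -0.44 in the BACL-CHIR99021 libraries (mean -0.41 ± 0.04, SD, n = 2) and -0.49 and -0.52 in the BACL control libraries (-0.50 ± 0.02, n = 2). These 4 values lay below the whole range of the other 20 scaffolds in the same libraries, whose lowest value was -0.20. Here and below, each of the other scaffolds was taken whole. HIC_ASM_15 was cut at a split picked from these values, so the ranges are not like for like. It was 0.13 and 0.06 in the BACL LB GPiPSCs libraries, 0.13 and 0.12 in the XR GPiPSCs libraries, and 0.14, -0.08 and 0.08 in LB GPiPSCs replicates 1, 2 and 3. The lowest of the 3 LB GPiPSCs libraries was thus replicate 2. The day 16 cultures had 0.16 and 0.05 with A83-01 and 0.01 and 0.04 in the control. The group means were 0.09 ± 0.02 in XR PF, 0.16 ± 0.08 in LB PF, -0.03 ± 0.05 in stage I D8, 0.19 ± 0.09 in stage I D24 and -0.02 ± 0.05 in stage II D8 (SD, n = 2 each).

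**Figure D1:**
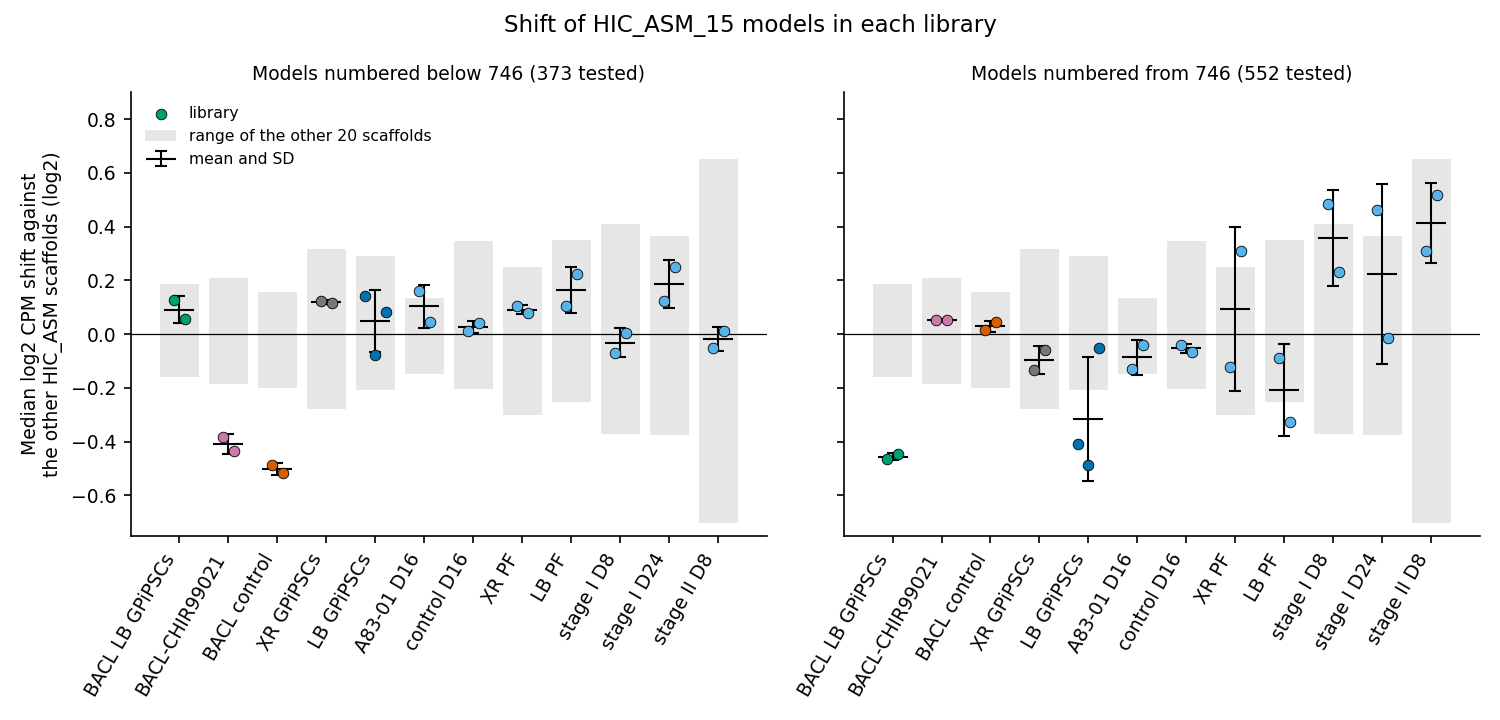
Median log2 CPM shift of HIC_ASM_15 models in each of the 25 libraries, left of the split on the left and right of the split on the right. Points are libraries, black lines group means with SD, and grey bars the range of the other 20 HIC_ASM scaffolds, each taken whole, over the libraries of a group. On the left the 4 BACL-CHIR99021 and BACL control points lie between -0.38 and -0.52, under the grey bars, and right of the split the BACL LB GPiPSCs points and those of LB GPiPSCs replicates 1 and 2 lie between -0.41 and -0.49.

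Right of the split a different set of libraries stood low. The shift was -0.47 and -0.45 in the BACL LB GPiPSCs libraries (-0.46 ± 0.01, SD, n = 2) and -0.41, -0.49 and -0.05 in LB GPiPSCs replicates 1, 2 and 3 (-0.31 ± 0.23, n = 3). Replicate 3 of LB GPiPSCs did not share the low value of the other 2 and lay beside the XR GPiPSCs libraries, at -0.13 and -0.06. The 4 libraries under -0.40 lay below all the other 20 scaffolds, each taken whole, whose lowest value in them was -0.16. BACL-CHIR99021 (0.05 and 0.05) and BACL control (0.01 and 0.04) were near 0, as were A83-01 D16 (-0.13 and -0.04) and control D16 (-0.04 and -0.06).

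The remaining groups varied more between their own libraries right of the split. XR PF had -0.12 and 0.31, LB PF -0.09 and -0.33, stage I D8 0.48 and 0.23, stage I D24 0.46 and -0.01, and stage II D8 0.31 and 0.52. In these libraries another scaffold, HIC_ASM_16, took similar values. It had -0.15 and 0.21 in XR PF, -0.02 and -0.25 in LB PF and 0.41 and 0.23 in stage I D8. It had 0.36 and -0.02 in stage I D24 and 0.47 and 0.65 in stage II D8. Models right of the split still lay above every other HIC_ASM scaffold, each taken whole, in some libraries. These were XR PF replicate 2 (0.31, highest other 0.25), stage I D8 replicate 1 (0.48, 0.41) and stage I D24 replicate 1 (0.46, 0.36). In LB PF replicate 2 they lay below every other (-0.33, lowest other -0.25). In the other libraries of these groups they lay inside that range. In BACL LB GPiPSCs (-0.04 and -0.07) and in LB GPiPSCs replicates 1 and 2 (-0.01 and -0.03) HIC_ASM_16 was near 0, unlike the models right of the split on HIC_ASM_15.

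The comparisons of the design gave the same picture as medians of model-wise differences, again relative to the other scaffolds. They share libraries with each other and are set side by side only. In BACL control minus XR GPiPSCs the median difference was -0.54 left of the split, with 254 of 373 models lower (68.1%), and 0.05 right of the split, with 239 of 552 models lower (43.3%). The other 20 scaffolds, each taken whole, ran from -0.26 (HIC_ASM_1) to 0.14 (HIC_ASM_8) in that comparison. BACL LB GPiPSCs minus BACL control, a comparison added after the data were seen, moved both ways: 0.30 left of the split, where 117 of 373 models were lower (31.4%), and -0.50 right of the split, where 429 of 552 were lower (77.7%). There the other scaffolds, again taken whole, ran from -0.14 to 0.01.

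LB GPiPSCs entered 4 of the comparisons. XR GPiPSCs minus LB GPiPSCs gave 0.11 left of the split, which was 0.01 without LB GPiPSCs replicate 2 and 0.14 without replicate 3, and 0.21 right of the split, which was 0.32 without LB GPiPSCs replicate 3. BACL LB GPiPSCs minus LB GPiPSCs gave 0.02 and -0.17 on the left and the right, and 0.0021 and -0.031 without replicate 3. LB GPiPSCs minus LB PF gave -0.09 and -0.03, and -0.10 and -0.15 without replicate 3. The mean of LB and XR GPiPSCs minus stage II D8 gave 0.14 left of the split and -0.68 right of the split, where 361 of 552 models were lower (65.4%). Without LB GPiPSCs replicate 3 these medians were 0.14 and -0.73. The other scaffolds ran there from -0.77 (HIC_ASM_16) to 0.63 (HIC_ASM_4), so -0.68 lay inside their range. XR PF minus LB PF gave 0.32 right of the split, which was 0.08 without XR PF replicate 2, 0.57 without XR PF replicate 1 and 0.12 without LB PF replicate 2. BACL-CHIR99021 minus BACL control gave 0.03 and 0.01, and XR GPiPSCs minus XR PF gave -0.02 and -0.10, the second being -0.31 without XR PF replicate 1 and less than 0.01 from 0 without replicate 2.

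Along the scaffold the plainest steps lay away from the split. In the 11 GPiPSC and BACL libraries, log2 CPM was set against the mean of the XR GPiPSCs libraries, model by model, and running medians over 31 models showed steps near models 250, 350 and 850. Blocks of models 1 to 250 (144 tested), 251 to 350 (52), 351 to 850 (243) and 851 to 1732 (486) were drawn from these values, so their medians describe and do not test. LB GPiPSCs replicate 3 lay near XR GPiPSCs in all 4 blocks, with medians of -0.05, 0.00, -0.03 and 0.00. The XR GPiPSCs libraries themselves were within 0.12 of their own mean in each block.

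**Figure D2:**
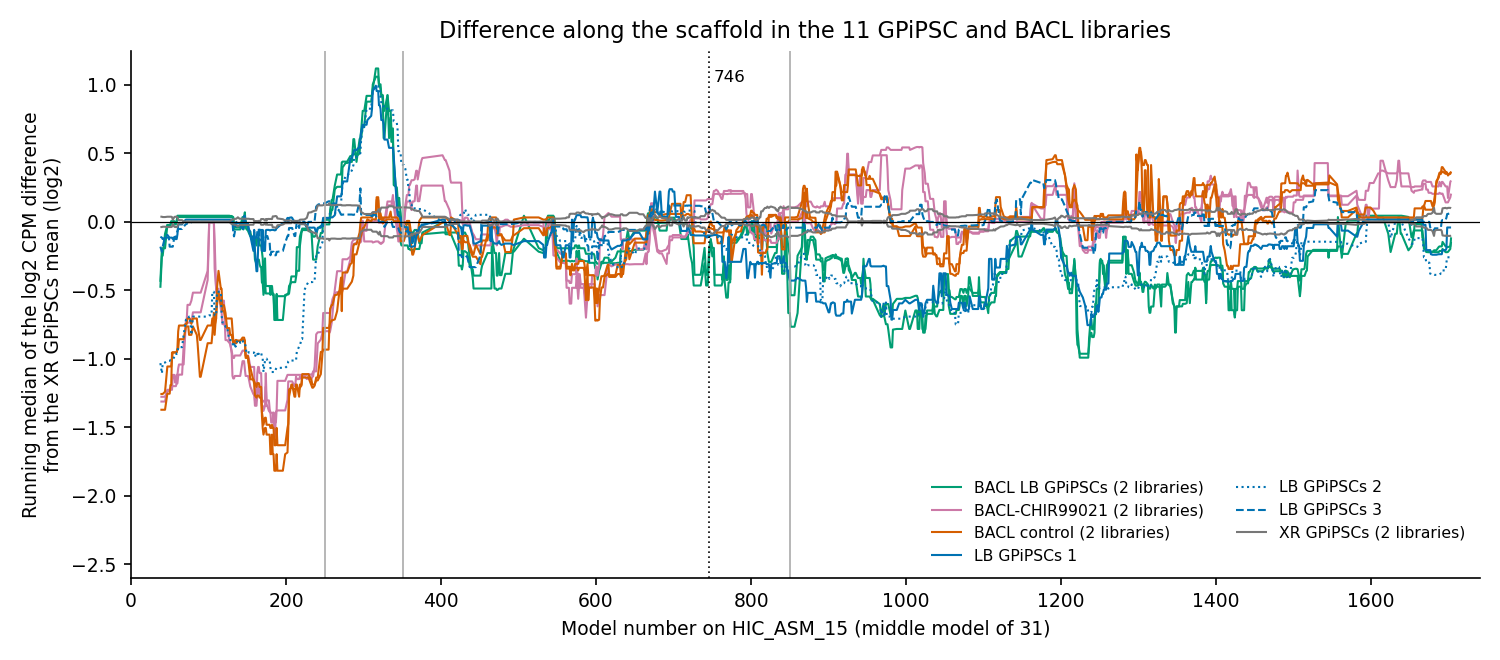
Running median over 31 tested models of the log2 CPM difference from the XR GPiPSCs mean, against model number, for the 11 GPiPSC and BACL libraries. Grey vertical lines mark the block boundaries after models 250, 350 and 850 and the dotted line marks the split. BACL-CHIR99021, BACL control and LB GPiPSCs replicate 2 run low over most of models 1 to 250, while BACL LB GPiPSCs and LB GPiPSCs replicates 1 and 2 peak between 251 and 350 and run low over most of the models from 851.

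The low values of BACL-CHIR99021 and BACL control lay mostly in models 1 to 250. The median difference from XR GPiPSCs was -1.16 and -1.10 in the BACL-CHIR99021 libraries and -1.17 and -1.12 in the BACL control libraries, which corresponds to 0.449, 0.467, 0.444 and 0.459 of the XR GPiPSCs level. It was -0.06 in both BACL LB GPiPSCs libraries. Among the LB GPiPSCs libraries replicate 2 was low at -0.95, while replicates 1 and 3 had -0.01 and -0.05. The summed CPM of the 144 models showed the same split, with 3644 and 3634 in BACL-CHIR99021, 3831 and 3763 in BACL control, 6833 and 6785 in BACL LB GPiPSCs, 7264, 4637 and 6991 in LB GPiPSCs replicates 1, 2 and 3, and 8263 and 8409 in XR GPiPSCs. The fibroblast, stage and D16 libraries summed to between 6865 (A83-01 D16 replicate 1) and 15407 CPM (stage II D8 replicate 2), all above BACL control.

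The low values of this block were spread over most of its models and over all levels, but not evenly along it. In BACL control replicate 1 the bins of 50 numbers had medians of -2.18, -0.89, -0.78, -1.53 and -1.11. BACL LB GPiPSCs replicates 1 and 2 were also low in the bins 1 to 50 (-0.79 and -0.59) and 151 to 200 (-0.50 and -0.53). In the bin 201 to 250 they were at -0.06 and -0.05. In the bins 51 to 100 and 101 to 150 they were at 0.035 and 0.045. Those are the values of a model without counts there and in XR GPiPSCs, so they give no level for these bins. In BACL control replicate 1, 124 of 144 models were below the XR GPiPSCs mean relative to the other scaffolds (86.1%) and the quartiles were -1.92 and -0.59. In 48 models of low level (mean up to 4.94 CPM) the BACL control medians were -1.14 and -1.01, in 48 of middle level -1.23 and -1.22, and in 48 of high level (at least 41.7 CPM) -1.10 and -0.99. Of the 77 models of the block with at least 10 CPM in XR GPiPSCs, 77 were lower in both BACL control libraries than in either XR GPiPSCs library, against 41.7% of all 8999 tested models at that level. The same 77 were lower in both BACL-CHIR99021 libraries, against 45.7%, and hence in all 4 libraries, against 28.8%. In LB GPiPSCs replicate 2, 69 of the 77 were lower, against 44.8%. The counts were 40 in replicate 1 (against 47.3%), 43 in replicate 3 (against 42.0%) and 41 in both BACL LB GPiPSCs libraries (against 42.8%). The level was read in XR GPiPSCs, which favours models high there, and the block was drawn on these values, so these counts describe only.

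Single models show the sizes. Model 53, among the 5 highest TPM means left of the split, had 623 and 608 CPM in BACL control, against 1196 and 1212 CPM in XR GPiPSCs. It had 477 and 485 CPM in BACL-CHIR99021 and 536 CPM in LB GPiPSCs replicate 2, while BACL LB GPiPSCs had 1157 and 1148 CPM and LB GPiPSCs replicates 1 and 3 had 1041 and 871 CPM. The 5 low libraries did not overlap the others.

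Model 28 followed the same pattern with a larger difference. It had 12.8 and 11.6 CPM in BACL control and 16.5 CPM in both BACL-CHIR99021 libraries, against 85.8 and 79.0 CPM in XR GPiPSCs. BACL LB GPiPSCs had 52.3 and 49.1 CPM, and LB GPiPSCs had 68.7, 28.6 and 70.3 CPM, with replicate 2 again the lowest. BACL LB GPiPSCs exceeded BACL control by a log2 fold change of 2.06 ± 0.36 (SE; edgeR adjusted p = 0.00226).

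Models 35, 38 and 21 were far below XR GPiPSCs in BACL control and in BACL LB GPiPSCs alike. Model 35 had 3.48 and 2.98 CPM in BACL control, 2.28 and 3.22 CPM in BACL-CHIR99021 and 4.86 and 4.64 CPM in BACL LB GPiPSCs, against 101.7 and 116.9 CPM in XR GPiPSCs. Its log2 fold change in BACL control minus XR GPiPSCs was -5.08 ± 0.42 (SE; edgeR adjusted p = 5.61e-07). Model 38 had 1.74 and 2.61 CPM in BACL control and 2.49 and 2.76 CPM in BACL LB GPiPSCs, against 76.3 and 82.5 CPM in XR GPiPSCs, with BACL-CHIR99021 at 7.53 and 6.03 CPM. In both models all 6 BACL libraries lay below the XR GPiPSCs and LB GPiPSCs libraries. Model 21 had 0.997 and 1.34 CPM in BACL LB GPiPSCs, against 53.2, 24.7 and 47.2 CPM in LB GPiPSCs, a log2 fold change of -5.15 ± 0.33 (SE; edgeR adjusted p = 6.92e-08), and of -5.04 without LB GPiPSCs replicate 3 (edgeR adjusted p = 4.51e-07). Its BACL-CHIR99021 values of 22.6 and 23.8 CPM were close to that of LB GPiPSCs replicate 2.

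Not every model of the block was low. Model 78 had 2.05 and 1.93 CPM in BACL control and 24.4 and 22.0 CPM in BACL-CHIR99021, against 0.258 and 0.0614 CPM in XR GPiPSCs, where 3 counts correspond to 0.193 and 0.184 CPM. Model 182 had 4.04 and 3.42 CPM in BACL control against 4.89 and 3.56 CPM in XR GPiPSCs, and stood out instead in BACL LB GPiPSCs with 13.8 and 12.8 CPM.

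Models 251 to 350 were high in BACL LB GPiPSCs and in LB GPiPSCs replicates 1 and 2. The median difference from XR GPiPSCs was 0.61 and 0.54 in BACL LB GPiPSCs and 0.53 and 0.68 in LB GPiPSCs replicates 1 and 2, against 0.00 in replicate 3. BACL control (-0.07 and -0.15) and BACL-CHIR99021 (-0.16 and -0.12) were not high. Over the models with at least 10 CPM on average the 4 high values were 0.93 in both BACL LB GPiPSCs libraries and 0.83 and 0.96 in LB GPiPSCs. Of the 17 models with at least 10 CPM in XR GPiPSCs, 14 were higher in both BACL LB GPiPSCs libraries than in either XR GPiPSCs library, against 42.6% of all models at that level. For LB GPiPSCs replicates 1 and 2 the count was 15 of 17, against 30.8%. Model 255 had 14.1 CPM in both BACL LB GPiPSCs libraries, against 5.06, 3.80 and 6.16 CPM in LB GPiPSCs and 4.98 and 4.41 CPM in BACL control, with BACL-CHIR99021 at 15.9 and 14.9 CPM. XR GPiPSCs had 8.17 and 7.37 CPM, so in this model LB GPiPSCs replicates 1 and 2 were lower than XR GPiPSCs, unlike the block median.

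**Figure D3:**
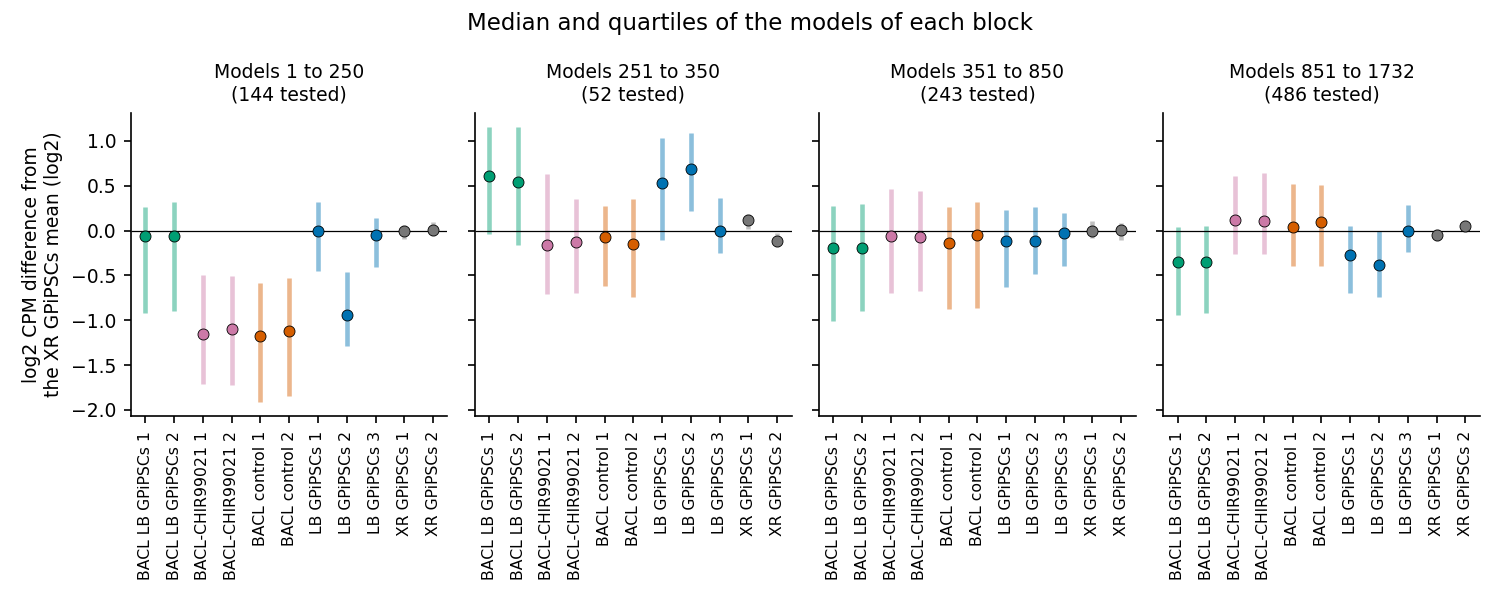
Median (points) and quartiles (bars) of the log2 CPM difference from the XR GPiPSCs mean over the tested models of each block, in the 11 GPiPSC and BACL libraries. The first block is low in BACL-CHIR99021, BACL control and LB GPiPSCs replicate 2 (-0.95 to -1.17), the second is high in BACL LB GPiPSCs and LB GPiPSCs replicates 1 and 2 (0.53 to 0.68), the third lies between -0.20 and 0.00 in every library, and the fourth is low in the same 4 libraries as the second is high (-0.28 to -0.39).

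Models 351 to 850, which include the split, lay near XR GPiPSCs as a block, although LB GPiPSCs replicate 1 was at -0.41 in the bin 801 to 850. Their medians were between -0.20 (BACL LB GPiPSCs) and 0.00 (XR GPiPSCs), and between -0.10 and 0.08 over models with at least 10 CPM on average. The named models nearest to it behaved individually. Of the 5 tested models nearest on the left, models 735 and 742 stayed under 3 CPM in every library, model 740 averaged 7.56 ± 0.15 CPM in BACL LB GPiPSCs, 13.1 ± 0.6 CPM in BACL control and 13.4 ± 0.3 CPM in XR GPiPSCs (SD, n = 2 each), and models 734 and 744 averaged 1369 ± 22 and 100.5 ± 1.0 CPM in BACL control, against 1147 ± 72 and 73.6 ± 6.9 CPM in XR GPiPSCs. Right of the split, evm.model.HIC_ASM_15.746 averaged 8.64 ± 0.01 CPM in BACL control, against 30.9 ± 1.7 CPM in XR GPiPSCs, and model 748 averaged 3.76 ± 0.14 CPM in BACL control, against 2.99 ± 0.32 CPM in XR GPiPSCs. Models 750, 752 and 753 averaged 0.777, 2.61 and 0.528 CPM in BACL control, against 1.13, 4.28 and 1.26 CPM in XR GPiPSCs.

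Some models of this block differed strongly between libraries although the block did not. Model 699 had 44.5 and 43.9 CPM in BACL control, against 2.00 and 2.27 CPM in XR GPiPSCs, and the 2 BACL-CHIR99021 libraries were at 2.97 and 3.51 CPM. Its log2 fold change was 4.37 ± 0.58 (SE; edgeR adjusted p = 6.3e-05) in BACL control minus XR GPiPSCs and -3.76 ± 0.56 (edgeR adjusted p = 9.81e-05) in BACL-CHIR99021 minus BACL control. Model 532 had 103.4 and 98.5 CPM in BACL control, against 6.44 and 6.63 CPM in XR GPiPSCs, and 44.4 and 48.7 CPM in BACL LB GPiPSCs, against 2.14, 6.29 and 2.83 CPM in LB GPiPSCs. Model 709 had 1.43 and 1.75 CPM in BACL LB GPiPSCs, against 14.2 and 14.7 CPM in BACL control (log2 fold change -3.17 ± 0.34, SE; edgeR adjusted p = 3.18e-05).

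Models 851 to 1732 were low in BACL LB GPiPSCs and in LB GPiPSCs replicates 1 and 2, by less than models 1 to 250 were in BACL control. The median difference from XR GPiPSCs was -0.35 in both BACL LB GPiPSCs libraries and -0.28, -0.39 and 0.00 in LB GPiPSCs replicates 1, 2 and 3. BACL control (0.04 and 0.09) and BACL-CHIR99021 (0.12 and 0.11) were not low. The summed CPM of the 486 models was 26839 and 26590 in BACL LB GPiPSCs, 35712 and 36040 in BACL-CHIR99021, 40238 and 39797 in BACL control, 25675, 25158 and 33449 in LB GPiPSCs replicates 1, 2 and 3, and 34618 and 36365 in XR GPiPSCs. Of the 284 models with at least 10 CPM in XR GPiPSCs, 202 were lower in both BACL LB GPiPSCs libraries than in either XR GPiPSCs library, against 42.8%, and 199 were lower in both LB GPiPSCs replicates 1 and 2, against 35.1%. In LB GPiPSCs replicate 3 the count was 113, against 42.0%.

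Bins of 50 model numbers showed that the low run was not even. From model 901 to 1150 the medians of LB GPiPSCs replicate 2 lay between -0.40 and -1.01, from 1151 to 1200 the value was -0.06, and from 1201 to 1250 it was -0.62. In BACL LB GPiPSCs replicate 1 the bins 951 to 1000 and 1201 to 1250 were at -0.84 and -0.82. Its bin 1151 to 1200 was at 0.04, a value that recurred unchanged in bins such as 51 to 100 and 1601 to 1650. It is the value of a model without counts there and in XR GPiPSCs, so it gives no level for that bin. Model 1086 was an extreme case, with 3.74 and 2.89 CPM in BACL LB GPiPSCs, against 33.3 and 31.9 CPM in BACL control (log2 fold change -3.29 ± 0.45, SE; edgeR adjusted p = 0.000303). It had 17.8, 35.0 and 45.7 CPM in LB GPiPSCs, against 81.7 and 87.7 CPM in XR GPiPSCs. Model 1240, a steady model, had 314 and 317 CPM in BACL LB GPiPSCs, against 494 and 502 CPM in BACL control, and 259.9, 269 and 324 CPM in LB GPiPSCs, against 337 and 349.9 CPM in XR GPiPSCs. Model 1194 had 342 and 379.6 CPM in LB GPiPSCs replicates 1 and 2 and 502 CPM in replicate 3, against 515 and 506 CPM in XR GPiPSCs.

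Models 118 and 1301 were named, with models 28, 182, 709 and 1086, from the called models without overlap in BACL LB GPiPSCs minus BACL control that averaged 10 CPM or more in the higher group and summed to 10 counts or more in the lower one. Models outside these limits were not named from it, whatever their difference. Model 938 had 0.125 and 0.134 CPM in BACL LB GPiPSCs, against 1.12 and 1.30 CPM in BACL control. The BACL LB GPiPSCs values were 2 counts in each library, which give no usable level. Model 118 had 26.4 and 25.0 CPM in BACL LB GPiPSCs, against 5.91 and 6.40 CPM in BACL control (log2 fold change 2.06 ± 0.55, SE; edgeR adjusted p = 0.0353), but it was not called when any 1 of these 4 libraries was left out (edgeR adjusted p of 0.157 to 0.275). Model 1301 had 3.80 and 3.09 CPM in BACL LB GPiPSCs, against 16.2 and 17.2 CPM in BACL control (-2.27 ± 0.46, SE; edgeR adjusted p = 0.00624), and was not called without BACL LB GPiPSCs replicate 1 or 2 (edgeR adjusted p of 0.069 and 0.111). Model 182 (log2 fold change 1.83 ± 0.31, SE; edgeR adjusted p = 0.00202) was not called without BACL control replicate 2 (edgeR adjusted p of 0.0501).

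**Figure D4:**
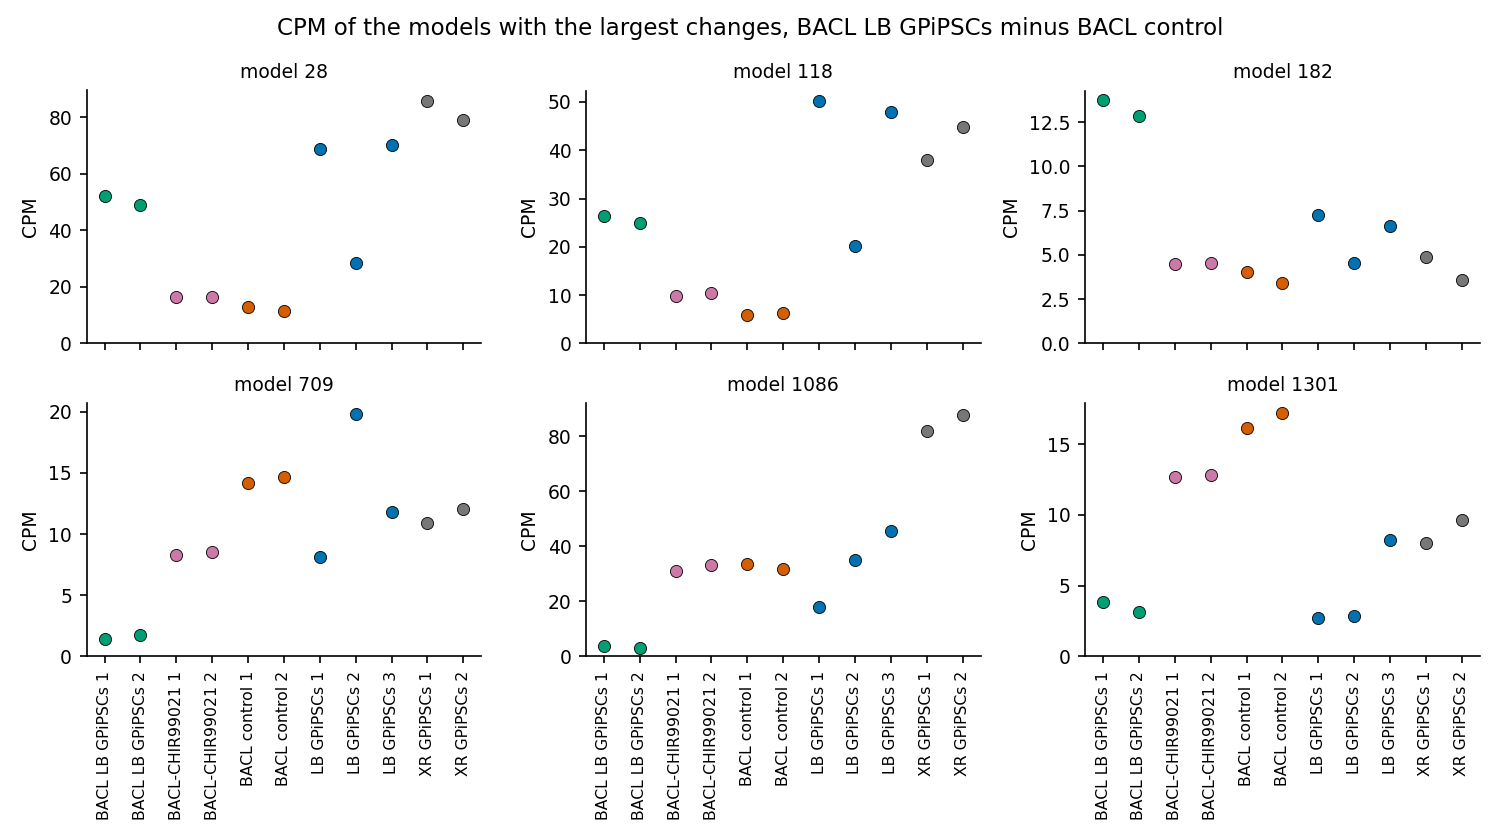
CPM of 6 HIC_ASM_15 models named from BACL LB GPiPSCs minus BACL control, the 3 of largest fold change in each direction among called models within the limits on CPM and counts, in each of the 11 GPiPSC and BACL libraries, with every axis starting at 0. Models 28, 118 and 182 are higher in both BACL LB GPiPSCs libraries than in both BACL control libraries, and models 709, 1086 and 1301 are lower.

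Low bins were also found on other scaffolds. In bins of 50 numbers with at least 10 tested models, HIC_ASM_15 had 35 bins and the other 20 HIC_ASM scaffolds 634. In BACL control replicate 1, 5 of the 35 bins and 17 of the 634 lay under -0.75, in BACL-CHIR99021 replicate 1 5 of 35 and 7 of 634, in LB GPiPSCs replicate 2 5 of 35 and 13 of 634, and in BACL LB GPiPSCs replicate 1 3 of 35 and 14 of 634. In bins of 100 numbers, 2 and 3 of 18 bins of HIC_ASM_15 lay under -0.75 in BACL control replicates 1 and 2, against 0 of 329 on the other scaffolds in both. In BACL-CHIR99021 replicates 1 and 2 these were 2 and 3 of 18, against 1 and 0 of 329. BACL LB GPiPSCs replicates 1 and 2 had 0 of 18, against 2 and 0 of 329. Under -0.5 lay 3 of 18 bins in each BACL control and BACL-CHIR99021 library. On the other scaffolds these were 16 and 15 of 329 in BACL control and 7 and 11 in BACL-CHIR99021. The longest run of neighbouring bins under -0.5 on HIC_ASM_15 was 5, in BACL control and BACL-CHIR99021. HIC_ASM_1 had a run of 8 in both BACL LB GPiPSCs libraries and in LB GPiPSCs replicate 1, and HIC_ASM_0 one of 8 in LB GPiPSCs replicate 2. In BACL control HIC_ASM_1 had runs of 6 and 3, and in BACL-CHIR99021 a run of 3 in both libraries. LB GPiPSCs replicate 3 had no bin under -0.5 on any HIC_ASM scaffold.

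The counts of called models are given beside the share of all 17225 tested models called in the same direction, with nothing read from them, since the scaffold was picked in the same libraries. Counts from other sets of libraries have beside them the share of all models called there. A model was called at an edgeR adjusted p under 0.05. In BACL control minus XR GPiPSCs, 146 of 925 members fell (15.8%, against 11.3%) and 41 rose (4.43%, against 6.14%). The 146 comprised 106 of 373 left of the split and 40 of 552 right of the split, and models 1 to 250 held 69 that fell and 1 that rose. The 187 calls in either direction (17.5% of all models called) were 75 without BACL control replicate 1 (against 6.76%), 78 without its replicate 2 (against 6.61%), 111 without XR GPiPSCs replicate 1 (against 8.78%) and 89 without its replicate 2 (against 7.71%). In a fit of only these 4 libraries, whose replicates correlated at r = 0.995 in BACL control and 0.993 in XR GPiPSCs, 546 of 780 members were called (against 66.5%), and in models 1 to 250 105 fell and 2 rose of 115 tested, against 33.5% of all models that fell.

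In BACL LB GPiPSCs minus BACL control 36 members rose (3.89%, against 1.55%) and 51 fell (5.51%, against 2.90%). Of those that rose 28 lay in models 1 to 250, and of those that fell 42 lay in models 851 to 1732. The 87 calls (4.45% of all models called) were 15 and 14 without BACL LB GPiPSCs replicates 1 and 2 (against 0.971% and 0.987%) and 24 and 25 without BACL control replicates 1 and 2 (against 1.46% and 1.49%). In the fit of only these 4 libraries 579 of 740 members were called (against 59.5%), with 98 higher and 4 lower of 111 in models 1 to 250, against 29.5% of all models higher, and 309 lower and 27 higher of 396 in models 851 to 1732, against 30.0% lower. In BACL LB GPiPSCs minus LB GPiPSCs 84 members fell (9.08%, against 7.70%) and 11 rose (1.19%, against 1.79%). The 95 calls (9.50% of all models called) were 27 and 25 without BACL LB GPiPSCs replicates 1 and 2 (against 2.57% and 2.67%) and 74 without LB GPiPSCs replicate 3 (against 7.76%).

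XR GPiPSCs minus LB GPiPSCs called 18 members higher (1.95%, against 1.10%) and 6 lower (0.649%, against 1.20%). Model 68 was higher, with 11.1 and 12.7 CPM in XR GPiPSCs against 3.56, 3.05 and 4.56 CPM in LB GPiPSCs (log2 fold change 1.67 ± 0.30, SE; edgeR adjusted p = 0.00767), but not without XR GPiPSCs replicate 1 or 2 (adjusted p of 0.0619 and 0.125, edgeR). Without LB GPiPSCs replicate 3 its edgeR adjusted p was 0.00213. The 24 calls (2.30% of all models called) were 85 without LB GPiPSCs replicate 3 (against 7.19%), 12 and 11 without replicates 1 and 2 (against 0.768% and 1.04%), and 1 without either XR GPiPSCs library (against 0.169% and 0.0961%). A fit of only these 5 libraries called 0 of 791 members by edgeR (against 0.0202%), and DESeq2 on all libraries called 53 of 888 members (against 5.37%). BACL-CHIR99021 minus BACL control called 95 members higher (10.3%, against 11.7%) and 38 lower (4.11%, against 4.43%). Of the 133 calls (16.1% of all models called) 20 lay in models 1 to 250, which were low in both groups. The 133 were 62 and 67 without BACL control replicates 1 and 2 (against 7.45% and 7.52%) and 75 without either BACL-CHIR99021 library (against 8.86% and 8.70%), and a fit of only these 4 libraries called 571 of 777 members (against 71.8%).

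**Figure D5:**
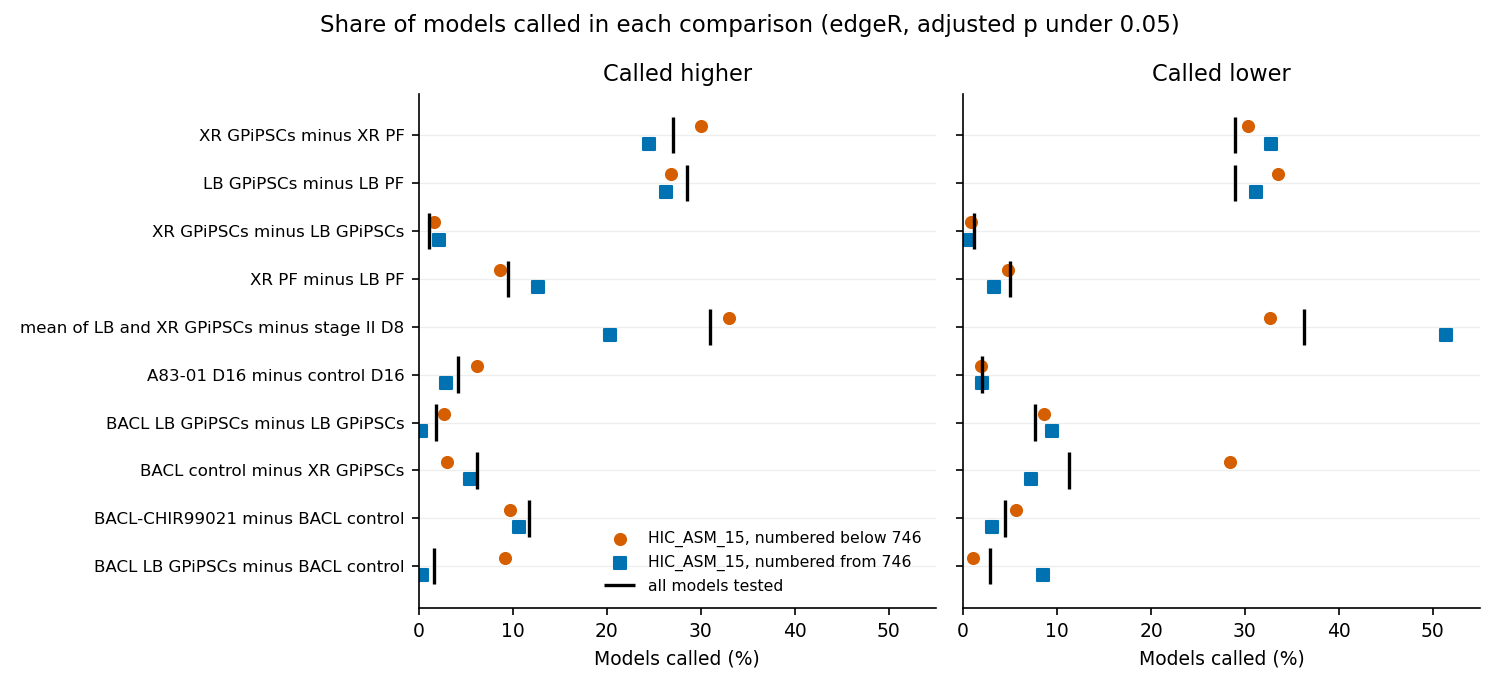
Share of HIC_ASM_15 models called higher (left) and lower (right) by edgeR in each comparison, in percent of tested models, left of the split (circles) and right of the split (squares), with black lines for all 17225 tested models. The widest gaps are the 28.4% of models left of the split that were lower in BACL control minus XR GPiPSCs against 11.3%, and the 51.4% of models right of the split that were lower in the mean of LB and XR GPiPSCs minus stage II D8 against 36.3%.

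XR GPiPSCs minus XR PF called 541 of 925 members (58.5%, against 55.9%), 247 higher (26.7%, against 27.0%) and 294 lower (31.8%, against 28.9%). LB GPiPSCs minus LB PF called 542 (58.6%, against 57.4%), 245 higher (26.5%, against 28.5%) and 297 lower (32.1%, against 28.9%), and 520 without LB GPiPSCs replicate 3 (against 54.5%). Model 562 had 1.55 and 1.84 CPM in XR GPiPSCs, against 474 and 615 CPM in XR PF, and its neighbour model 563 had 0.454, 0.498 and 0.193 CPM in LB GPiPSCs, against 1208 and 1573 CPM in LB PF. Model 464 had 68.1 and 68.0 CPM in XR GPiPSCs, against 0.647 and 0.929 CPM in XR PF (log2 fold change 6.43 ± 0.42, SE; edgeR adjusted p = 5.41e-10). Model 1719 had 341, 289 and 274 CPM in LB GPiPSCs, against 4.84 and 2.79 CPM in LB PF (6.28 ± 0.40; edgeR adjusted p = 1.93e-10), with 6.36 without LB GPiPSCs replicate 3 (edgeR adjusted p = 7.84e-10). XR PF minus LB PF called 138 members (14.9%, against 14.5%), 102 higher (against 9.47% of all models) and 36 lower (3.89%, against 5.04%). The 138 were 60 without XR PF replicate 2 (against 5.79%), 269 without XR PF replicate 1 (against 26.7%), 211 without LB PF replicate 1 (against 25.6%), 92 without LB PF replicate 2 (against 8.33%) and 34 in a fit of only these 4 libraries (against 3.34%).

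Against stage II D8, the mean of LB and XR GPiPSCs had 406 members called lower (43.9%, against 36.3%) and 235 higher (25.4%, against 31.0%), and 406 and 233 without LB GPiPSCs replicate 3 (against 66.4% in either direction). Those called lower were 122 of 373 left of the split and 284 of 552 right of the split. Model 938 had 0.0648, 0.125 and 1.09 CPM in LB GPiPSCs and 0.515 and 0.737 CPM in XR GPiPSCs, against 209.6 and 226 CPM in stage II D8. Model 35 moved the other way, with 99.5, 37.1 and 61.1 CPM in LB GPiPSCs and 101.7 and 116.9 CPM in XR GPiPSCs, against 2.58 and 2.82 CPM in stage II D8. Bins of 100 model numbers with at least 20 tested models were set against the control D16 mean, 17 on HIC_ASM_15 and 319 elsewhere. In stage II D8 replicate 2 they ran from -1.66 to 1.31 on HIC_ASM_15 and from -2.25 to 1.77 on the other scaffolds. In A83-01 D16 replicate 1 they ran from -0.21 to 0.17 and from -0.29 to 0.45. Ranges over unequal numbers of bins are not like for like. The distance between the quartiles of the bins was 1.4975 against 1.1862 in the former library and 0.1244 against 0.1433 in the latter. It was larger on HIC_ASM_15 in every stage library, XR PF replicate 2 and A83-01 D16 replicate 2. In the other fibroblast and D16 libraries it was smaller.

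A83-01 D16 minus control D16 called 39 members higher (4.22%, against 4.19%) and 18 lower (1.95%, against 2.04%). Model 452 had 119.5 and 226 CPM in A83-01 D16, against 22.3 and 20.4 CPM in control D16 (log2 fold change 3.02 ± 0.40, SE; edgeR adjusted p = 0.000135). Model 78 had 7.88 and 1.90 CPM in A83-01 D16, against 31.2 and 31.4 CPM in control D16 (-2.66 ± 0.52; edgeR adjusted p = 0.00329). The 57 calls (6.22% of all models called) were 18 and 13 without control D16 replicates 1 and 2 (against 2.14% and 1.70%), 21 and 41 without A83-01 D16 replicates 1 and 2 (against 2.11% and 4.45%), and 113 in a fit of only these 4 libraries (against 14.9%).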

How the data were processed

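RNA sequencing was available for 25 libraries as 1 table each. Per the file headers, the deposited values were kallisto-style estimated counts and TPM per gene model; kallisto is named in the submitters' processing notes. Not given in the sources used here are its version, its index and the build of the assembly. Such estimates may split reads arbitrarily among near-identical models.

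Estimated counts were rounded and fitted with edgeR 4.0.16 (R 4.3.3, limma 3.58.1) by the quasi-likelihood test with Benjamini-Hochberg adjustment over 17225 models, after TMM scaling and edgeR's filter on low counts, in 1 model of 12 groups with 13 residual degrees of freedom. DESeq2 1.42.0 was an alternative. Log2 CPM used a prior count of 2. Deposited TPM served for levels between models and for 1 alternative. In CPM, 3 counts corresponded to 0.176 to 0.376. The scripts were tested on simulated data.

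Named models were the 5 steadiest between replicates with at least 20 CPM and the 5 of highest TPM on each side of the split, the 5 tested on each side nearest to it, and per comparison and direction up to 3 called models of largest fold change, without overlap between groups, that summed to 10 counts or more in the lower group and averaged 10 CPM or more in the higher one; model 53 is one of high TPM. Values in comparisons other than the one that named a model were chosen after they were seen. The members, lists, blocks and tests were chosen with earlier results of these data known.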

Additional observations from a re-analysis of the deposited data

Results flagged for a closer look

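The change between GPiPSCs and fibroblasts (GPiPSCs minus PF, in log2 CPM) was compared between XR and LB libraries by an interaction term in edgeR. It differed at an adjusted p under 0.05 for 1489 of 17225 models (8.64%) and for 58 of 925 HIC_ASM_15 models (6.27%). Among the named models, the XR change minus the LB change was -6.98 for model 78 (SE 0.91, edgeR adjusted p = 0.000171), -4.14 for model 999 (SE 1.04, edgeR adjusted p = 0.0191), -4.04 for model 748 (SE 0.74, edgeR adjusted p = 0.00274) and -3.72 for model 699 (SE 0.97, edgeR adjusted p = 0.0224). It was -3.36 for model 977, -2.35 for model 1174 and -1.77 for evm.model.HIC_ASM_15.746. Model 78 had 0.258 and 0.0614 CPM in XR GPiPSCs against 439.6 and 901 CPM in XR PF, and 2.53, 1.87 and 3.21 CPM in LB GPiPSCs against 96.4 and 65.1 CPM in LB PF. The difference was positive for model 406 at 4.65, for model 452 at 4.20, for model 1231 at 3.16 and for model 562 at 2.04. Model 452 had 0 and 2 counts in XR PF, model 699 had 8 and 0 counts in LB PF and model 78 had 4 and 1 counts in XR GPiPSCs. The sizes given for these 3 models therefore depend on the prior count and are no measure of the difference. All these values include LB GPiPSCs replicate 3, which stood apart from its group, and they were not repeated without it or any other library. What XR and LB stand for is not explained in the labels.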

How the results depend on the processing

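Medians near 0 changed sign under some alternatives. Left of the split these were XR GPiPSCs minus XR PF (-0.023), BACL-CHIR99021 minus BACL control (0.03), the mean of LB and XR GPiPSCs minus stage II D8 (0.14), LB GPiPSCs minus LB PF (-0.09), BACL LB GPiPSCs minus LB GPiPSCs (0.02) and A83-01 D16 minus control D16 (0.03), and right of it A83-01 D16 minus control D16 (-0.0011) and LB GPiPSCs minus LB PF (-0.03). Centred on the fibroblasts, the left group shifts of BACL LB GPiPSCs, LB GPiPSCs, XR GPiPSCs, A83-01 D16, control D16 and XR PF, all positive on the 12 groups, were negative. The cause of each move below was not tested. All values are log2 medians relative to the other scaffolds unless they count called models.

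The low median of BACL control minus XR GPiPSCs left of the split (-0.54) was -0.26 with no filter on low counts, -0.30 on log2(TPM + 1), -0.50 over models of at least 10 CPM, -0.57 without scaffolds HIC_ASM 0, 1, 4 and 13, -0.62 with the split 50 numbers lower, -0.47 with it 50 higher and -0.63 with a prior count of 0.5, and right of the split it was 0.11 at 10 CPM, 0.11 on log2(TPM + 1) and 0.11 with a trimmed mean. BACL LB GPiPSCs minus BACL control was 0.19, 0.21 and 0.44 left of the split with no filter, on log2(TPM + 1) and with a trimmed mean, and right of the split it was -0.39, -0.32 and -0.45 under these, -0.53 at 10 CPM, -0.53 with a prior count of 0.5 and -0.47 with the split 50 numbers lower. The mean of LB and XR GPiPSCs minus stage II D8 was 0, -0.020 and 0.21 left of the split with no filter, on log2(TPM + 1) and without the 4 scaffolds, and -0.42 and -0.45 right of the split under the first and the second. XR GPiPSCs minus XR PF left of the split was 0, -0.058, -0.051, 0.024 and 0.043 with no filter, at 10 CPM, on log2(TPM + 1), without the 4 scaffolds and with a trimmed mean. BACL-CHIR99021 minus BACL control was -0.034 left of the split and 0.031 right of it on log2(TPM + 1), and 0.035 right of the split at 10 CPM.

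Against XR GPiPSCs, the median of models 1 to 250 in BACL control was -0.96, -0.83, -1.22 and -1.23 with no filter, on log2(TPM + 1), at 10 CPM and with a prior count of 0.5, and in BACL-CHIR99021 -0.91, -0.89, -1.19, -1.16, -1.16 and -1.16 with no filter, on log2(TPM + 1), at 10 CPM, with RLE size factors, without the 4 scaffolds and with a trimmed mean. Models 251 to 350 in BACL LB GPiPSCs were at 0.34, 0.41 and 0.85 with no filter, on log2(TPM + 1) and at 10 CPM.

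Centred on the fibroblasts, group shifts left of the split were -0.0055 in BACL LB GPiPSCs, -0.51 in BACL-CHIR99021, -0.43 in BACL control, -0.068 in LB GPiPSCs, -0.033 in XR GPiPSCs, -0.032 in A83-01 D16, -0.042 in control D16, 0.035 in stage I D24, -0.10 in stage II D8, -0.0067 in XR PF and 0.014 in LB PF, and right of the split -0.34 in BACL LB GPiPSCs, 0.14 in BACL-CHIR99021 and -0.0084 in XR GPiPSCs.

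Fits of only the libraries compared called 0 members for XR GPiPSCs minus LB GPiPSCs (0.0202% of all models) and 34 for XR PF minus LB PF (3.34%). They called 113 for A83-01 D16 minus control D16 (14.9%) and 546 for BACL control minus XR GPiPSCs (66.5%). For BACL-CHIR99021 minus BACL control they called 571 (71.8%), and for BACL LB GPiPSCs minus BACL control 579 (59.5%). DESeq2 called 53 for XR GPiPSCs minus LB GPiPSCs (5.37% of all models). Leaving out 1 library gave 1 to 85 calls for XR GPiPSCs minus LB GPiPSCs, 60 to 269 for XR PF minus LB PF, 13 to 41 for A83-01 D16 minus control D16, 25 to 85 for BACL LB GPiPSCs minus LB GPiPSCs, 75 to 111 for BACL control minus XR GPiPSCs, 62 to 75 for BACL-CHIR99021 minus BACL control and 14 to 25 for BACL LB GPiPSCs minus BACL control. A lone remaining library was assumed to vary like the other groups. Leaving out 1 library gave medians of -1.16 to -1.10 for models 1 to 250 in BACL control, -1.17 to -1.05 in BACL-CHIR99021, -0.57 to -0.53 left of the split for BACL control minus XR GPiPSCs, -0.020 to 0.095 left of the split for XR GPiPSCs minus XR PF and -0.057 to 0.067 right of the split for A83-01 D16 minus control D16.

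Same-numbered libraries did not deviate together: over 66 pairs the correlation of deviations ran from -0.71 to 0.56 and was above 0.1 in 7, so the numbers were not taken to pair the samples. With the replicate block, XR GPiPSCs minus LB GPiPSCs called 81 members in place of 24 (6.57% of all models in place of 2.30%), BACL LB GPiPSCs minus LB GPiPSCs 65 in place of 95 (7.00% in place of 9.50%), and the other comparisons stayed within 1.5 times their counts. Models under 3 counts in a library gave no usable level there.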
